A study of Mus musculus with 12 samples.

Results

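The genes described here are 10 apolipoprotein and lipoprotein assembly genes of mouse kidney cortex, out of 27412 genes in the table. They are Apoa1, Apoc3, Apoa4 and Apoa5, which lie together in 1 cluster on chromosome 9, the transcript Gm10680 on the strand opposite Apoa4, and Apob, Mttp, Apoe, Apom and Apod, which lie elsewhere. They were picked by symbol with earlier results in view: Apoa4 and Gm10680 were chosen on their difference between the genotypes, and Apoc3 on its difference between the kidneys. The values of all 10 in those 2 comparisons are therefore given as a description with no test. The samples were thin outer slices of kidney cortex, with both kidneys sequenced separately, from untreated male C57BL/6 mice. The 3 mice numbered 17-51, 17-53 and 17-56 carried the transgene labelled gamma-HIF2alphaM3 (TG+), called HIF2aM3 here, and the 3 mice numbered 1, 2 and 3 were wild type (WT). The series name gives the transgene as GGT-HIF2aM3, for the gamma-glutamyl transferase promoter, which is active mainly in proximal tubule cells. No age is given in the labels, they do not say whether the 3 transgenic mice come from 1 line, and they do not say which kidney is the left.

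Apolipoproteins are the proteins that coat lipid particles in blood, keep the particles soluble and bind the enzymes and receptors that empty or remove them. Liver and small intestine make most of the circulating apolipoproteins: Apob is the large structural protein of the triglyceride-rich particles, Mttp loads lipid onto it, Apoa1 is the main protein of HDL, Apoa4 is made chiefly by intestine, and Apoc3 slows the clearance of triglyceride. Apoa5 has the opposite action to Apoc3 and promotes triglyceride clearance. In kidney, proximal tubule cells take up filtered apolipoproteins, and they are also a known site of synthesis of Apob, Mttp and Apom. HIF2alpha, encoded by Epas1, is an oxygen-regulated transcription factor subunit.

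Of the 4 genes in the chromosome 9 cluster, Apoc3 and Apoa4 were abundant in HIF2aM3 cortex and scarce in WT cortex, while Apoa1 and Apoa5 were near the limit of detection in both. In the GRCm38 annotation the starts of Apoc3 (minus strand) and Apoa4 (plus strand) are 5060 bp apart, those of Apoa1 (plus strand) and Apoc3 are 7056 bp apart, and that of Apoa5 (plus strand) lies 27937 bp from that of Apoa4. The table's own build is mm9, so all coordinates and sequences here come from GRCm38 and serve as context only. Promoter windows from RefSeq (GRCm38.p6) matched 8 of the 10 genes, the others being Apoc3 and Gm10680. The 250 bases before the start of the 3 plus-strand cluster genes follow, 5′ to 3′, to show the high gene Apoa4 beside 2 scarcely detected cluster genes.
Apoa4, chr9:46240594-46240843, plus strand: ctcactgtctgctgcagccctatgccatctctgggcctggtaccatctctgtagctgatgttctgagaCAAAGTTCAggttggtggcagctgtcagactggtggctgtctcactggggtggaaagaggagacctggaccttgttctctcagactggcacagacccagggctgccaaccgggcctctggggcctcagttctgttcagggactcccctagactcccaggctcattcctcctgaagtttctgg
Apoa1, chr9:46228380-46228629, plus strand: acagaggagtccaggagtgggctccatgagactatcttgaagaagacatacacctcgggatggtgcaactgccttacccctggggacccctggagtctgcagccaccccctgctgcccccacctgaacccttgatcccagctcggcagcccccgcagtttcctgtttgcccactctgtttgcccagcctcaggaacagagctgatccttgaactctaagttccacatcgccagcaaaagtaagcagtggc
Apoa5, chr9:46268358-46268607, plus strand: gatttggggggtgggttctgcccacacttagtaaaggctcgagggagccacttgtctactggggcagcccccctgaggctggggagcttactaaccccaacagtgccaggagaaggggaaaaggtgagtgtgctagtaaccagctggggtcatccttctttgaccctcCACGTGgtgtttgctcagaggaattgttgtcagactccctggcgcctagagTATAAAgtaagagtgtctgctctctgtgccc
Capitals mark matches to motifs that were chosen after the sequences had been seen. In Apoa4 they mark CAAAGTTCA, a form of the site bound by HNF4, which 0.335% of 32851 RefSeq windows, likewise the 250 bases before a start, held on either strand. In Apoa5 they mark CACGTG, which holds ACGTG, a HIF core motif, on both strands (the motif was present in 16.6% of windows), and TATAAA, the TATA box (12.4% of windows). The Apoa4 and Apoa1 windows held neither ACGTG nor GCGTG, the other HIF core, which was present in 28.2% of windows. A match describes these letters and nothing more. Only exact letters were searched, so an unmarked window, as for Apoa1, may still hold other forms of a site. The windows do not reach the distal elements that may serve the cluster.

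Apoa4 and Gm10680 share part of their sequence on opposite strands, and reads from that part cannot be assigned to 1 of them unless counting used strand. In the GRCm38 annotation 632 exonic bases of the pair coincide on opposite strands, out of 1815 bases of the Apoa4 transcript (34.8%) and 702 of the Gm10680 transcript, and 520 of them code for Apoa4. The library kit is given as TruSeq RNA, and the sources used here do not say whether counting used strand. A 90-base stretch of the shared coding part, chr9:46242621-46242710 of GRCm38, is shown as each gene reads it, 5′ to 3′, because 1 RNA fragment from it could be counted for either gene.
Apoa4, plus strand: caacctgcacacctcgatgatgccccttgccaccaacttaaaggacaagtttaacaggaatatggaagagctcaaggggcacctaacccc
Gm10680, minus strand: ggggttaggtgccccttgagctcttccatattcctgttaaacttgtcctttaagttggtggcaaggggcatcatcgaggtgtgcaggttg

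Library totals ran from 24032148 to 43499743 reads, except kidney 2 of 17-51 with 4161829. Proximal tubule markers fixed as a list of 14 genes, led by Kap, Slc34a1 and Lrp2, summed to between 30320 and 38190 CPM (reads scaled to a common library size with TMM factors) in HIF2aM3 libraries and between 31500 and 38650 CPM in WT libraries, and of these 14 genes 1 rose (Slc5a12) and 1 fell (Slc22a6), both calls being lost in 5 of the 6 fits that left out 1 animal. Epas1 was at 243.8 to 288.3 CPM in HIF2aM3 libraries, against 170.0 to 246.8 CPM in WT libraries (log2 fold change 0.39 ± 0.11 SE, adjusted p = 0.0881 by edgeR's quasi-likelihood test on animals), and reads of the transgene and of the mouse gene cannot be told apart. Kidney 2 of 17-56 stood apart from the other HIF2aM3 libraries in its summed macrophage markers (271.5 CPM, against 152.8 to 158.0 CPM) and its summed fibroblast and pericyte markers (556.9 CPM, against 305.2 to 358.6 CPM). In bulk cortex, fewer cells of a type and less RNA per cell cannot be told apart. Macrophage markers, led by Csf1r, Lyz2 and C1qb, summed to 152.8 to 271.5 CPM in HIF2aM3 and 87.1 to 192.9 CPM in WT libraries, with 1 of 10 genes higher (Csf1r, a call lost in 4 of those 6 fits), and fibroblast and pericyte markers, led by Rgs5, Pdgfrb and Col1a2, to 305.2 to 556.9 CPM in HIF2aM3 and 153.9 to 323.5 CPM in WT, with 0 of 10 past the threshold. Animals, with their 2 kidneys summed, were the replicates between genotypes.

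Apoa4, a protein of intestinal and plasma lipid particles, was present in every library. With the kidneys summed it was at 50.2, 62.6 and 26.6 CPM in HIF2aM3 mice 17-51, 17-53 and 17-56, against 1.37, 0.465 and 2.19 CPM in WT mice 1, 2 and 3. The genotypes did not overlap in animals or in libraries, and the lowest HIF2aM3 library (20.6 CPM) was 6.71 times the highest WT library (3.07 CPM). The means were 46.4 ± 18.3 CPM in HIF2aM3 and 1.34 ± 0.86 CPM in WT (SD, n = 3 animals each), a log2 fold change of 5.12 ± 0.54 (SE). In reads, the HIF2aM3 libraries together held 8516 for Apoa4 and the WT libraries 241.

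Apoc3, an inhibitor of triglyceride clearance, showed the same separation with less spread. It was at 65.5, 67.3 and 40.2 CPM in HIF2aM3 mice 17-51, 17-53 and 17-56, against 3.38, 2.61 and 3.95 CPM in WT mice 1, 2 and 3. The lowest HIF2aM3 library (33.0 CPM) was 8.02 times the highest WT library (4.11 CPM), so the libraries did not overlap. The means were 57.7 ± 15.2 CPM in HIF2aM3 and 3.32 ± 0.68 CPM in WT (SD, n = 3 each), a log2 fold change of 4.12 ± 0.26 (SE).

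Gm10680, an antisense transcript with no function known from the files, followed Apoa4. It was at 24.6, 31.4 and 12.8 CPM in HIF2aM3 mice 17-51, 17-53 and 17-56, against 0.574, 0.285 and 1.01 CPM in WT mice 1, 2 and 3, with no overlap and a log2 fold change of 5.20 ± 0.50 (SE). The number of Gm10680 reads for each Apoa4 read was 0.473 to 0.509 over the 6 HIF2aM3 libraries (median 0.489) and 0.404 to 0.619 over the 6 WT libraries (median 0.480). Thus a near-constant ratio held while Apoa4 reads per library ranged from 10 to 3890. The wider WT range came from libraries with between 6 and 41 Gm10680 reads. How many of the Gm10680 reads came from Apoa4 RNA cannot be told from these counts, so its values are not evidence of a separate transcript. With the reads of both added, Apoa4 and Gm10680 had a log2 fold change of 5.15 ± 0.54 (SE). Any fragment counted for both genes enters that sum 2 times. Given the near-constant ratio, the value had to lie near that of Apoa4 alone.

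The ratio of Apoa4 to Apoc3 reads was less constant than that of Gm10680 to Apoa4. It was 0.602 to 1.18 in HIF2aM3 libraries (median 0.693) and 0.143 to 0.748 in WT libraries (median 0.297), so the ranges overlapped. In HIF2aM3 the highest ratio was that of kidney 1 of 17-53, and in WT that of kidney 1 of animal 3. Within every animal the ratio was lower in kidney 2 than in kidney 1.

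**Figure D1:**
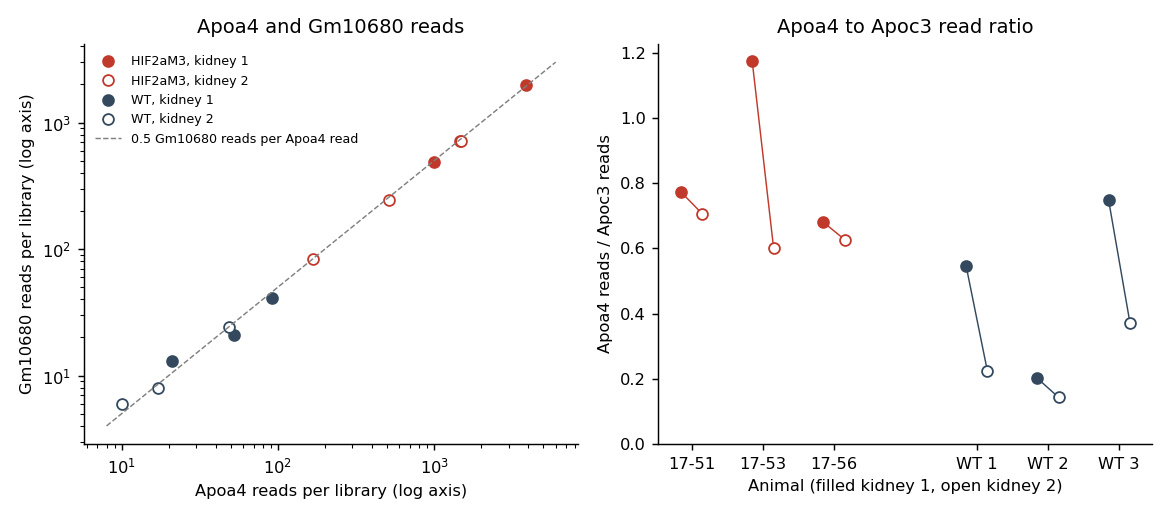
Left, Gm10680 reads against Apoa4 reads in each of 12 libraries, both axes logarithmic, with a dashed line at 0.5 Gm10680 reads per Apoa4 read. Right, Apoa4 reads divided by Apoc3 reads in each library by animal, kidney 1 filled and kidney 2 open; HIF2aM3 libraries lie between 0.602 and 1.18 and WT libraries between 0.143 and 0.748.

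The 2 remaining cluster genes gave few reads. Apoa1, the main HDL protein, had 41 reads in the 6 HIF2aM3 libraries and 28 in the 6 WT libraries, at 0.260 ± 0.125 CPM in HIF2aM3 and 0.150 ± 0.045 CPM in WT (SD, n = 3 each). The animals overlapped, at 0.400, 0.221 and 0.158 CPM in HIF2aM3 mice 17-51, 17-53 and 17-56 and 0.0990, 0.165 and 0.186 CPM in WT mice 1, 2 and 3, with a log2 fold change of 0.66 ± 0.43 (SE). Apoa5, a promoter of triglyceride clearance, had 2 reads in HIF2aM3 and 0 in WT, and did not pass the count filter. A count of 0 in 182977962 WT reads allows a level of up to 0.0164 CPM (3 reads over the group, counting error only), so a difference in Apoa5 was not detectable at this depth.

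Apob and Mttp, which together build the triglyceride-rich particle, were expressed in both genotypes, and their animals overlapped. Apob was at 364.5, 395.0 and 339.2 CPM in HIF2aM3 mice 17-51, 17-53 and 17-56, against 432.7, 275.8 and 305.0 CPM in WT mice 1, 2 and 3. The WT animals enclosed the HIF2aM3 animals, with means of 366.2 ± 28.0 CPM in HIF2aM3 and 337.8 ± 83.5 CPM in WT (SD, n = 3 each) and a log2 fold change of 0.12 ± 0.17 (SE). Mttp was at 39.0, 38.1 and 38.3 CPM in HIF2aM3 mice 17-51, 17-53 and 17-56, against 51.5, 37.9 and 35.9 CPM in WT mice 1, 2 and 3. The genotypes overlapped, the log2 fold change was -0.12 ± 0.13 (SE), and WT animal 1 was the highest for both genes. Mttp shares 457 exonic bases with Trmt10a on the opposite strand, so some of its reads may belong to that gene.

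Apoe, the receptor ligand that marks particles for removal and is also made by macrophages, was at 165.2, 185.6 and 170.5 CPM in HIF2aM3 mice 17-51, 17-53 and 17-56, against 123.6, 170.1 and 127.9 CPM in WT mice 1, 2 and 3. WT animal 2 lay among the HIF2aM3 animals, and the log2 fold change was 0.31 ± 0.12 (SE). In each genotype the library with the highest Apoe was also the one with the highest summed macrophage markers (10 of 10 listed genes found). In HIF2aM3, kidney 2 of 17-56 had 213.1 CPM of Apoe and 271.5 CPM of markers, and the kidneys of WT animal 2 had 162.8 and 180.3 CPM of Apoe with 177.4 and 192.9 CPM of markers. Below the highest libraries the 2 orders differed in HIF2aM3. Kidney 2 of 17-53 had 191.1 CPM of Apoe with the lowest marker sum of that genotype, 152.8 CPM. Kidney 1 of 17-56 had the lowest Apoe of that genotype, 138.0 CPM, with 157.8 CPM of markers. In WT, kidney 1 of animal 1 was the lowest in both, at 106.4 CPM of Apoe and 87.1 CPM of markers. The part of macrophages in the Apoe values was not tested. Over the alternatives the log2 fold change of Apoe ran from 0.20, without kidney 2 of 17-56, to 0.46, without WT animal 2.

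Apom, a small HDL protein that carries sphingosine 1-phosphate, had the least spread among HIF2aM3 animals after Mttp, with a coefficient of variation of 2.73%. It was at 60.6, 63.8 and 61.4 CPM in HIF2aM3 mice 17-51, 17-53 and 17-56, against 52.7, 54.5 and 43.7 CPM in WT mice 1, 2 and 3. The animals did not overlap but the libraries did, since kidney 2 of 17-56 (54.9 CPM) lay just below the highest WT library (55.1 CPM). The means were 61.9 ± 1.69 CPM in HIF2aM3 and 50.3 ± 5.78 CPM in WT (SD, n = 3 each), a log2 fold change of 0.30 ± 0.08 (SE). Apod, a lipocalin, had 70 reads in HIF2aM3 and 75 in WT, with overlapping animals and a log2 fold change of -0.05 ± 0.30 (SE).

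**Figure D2:**
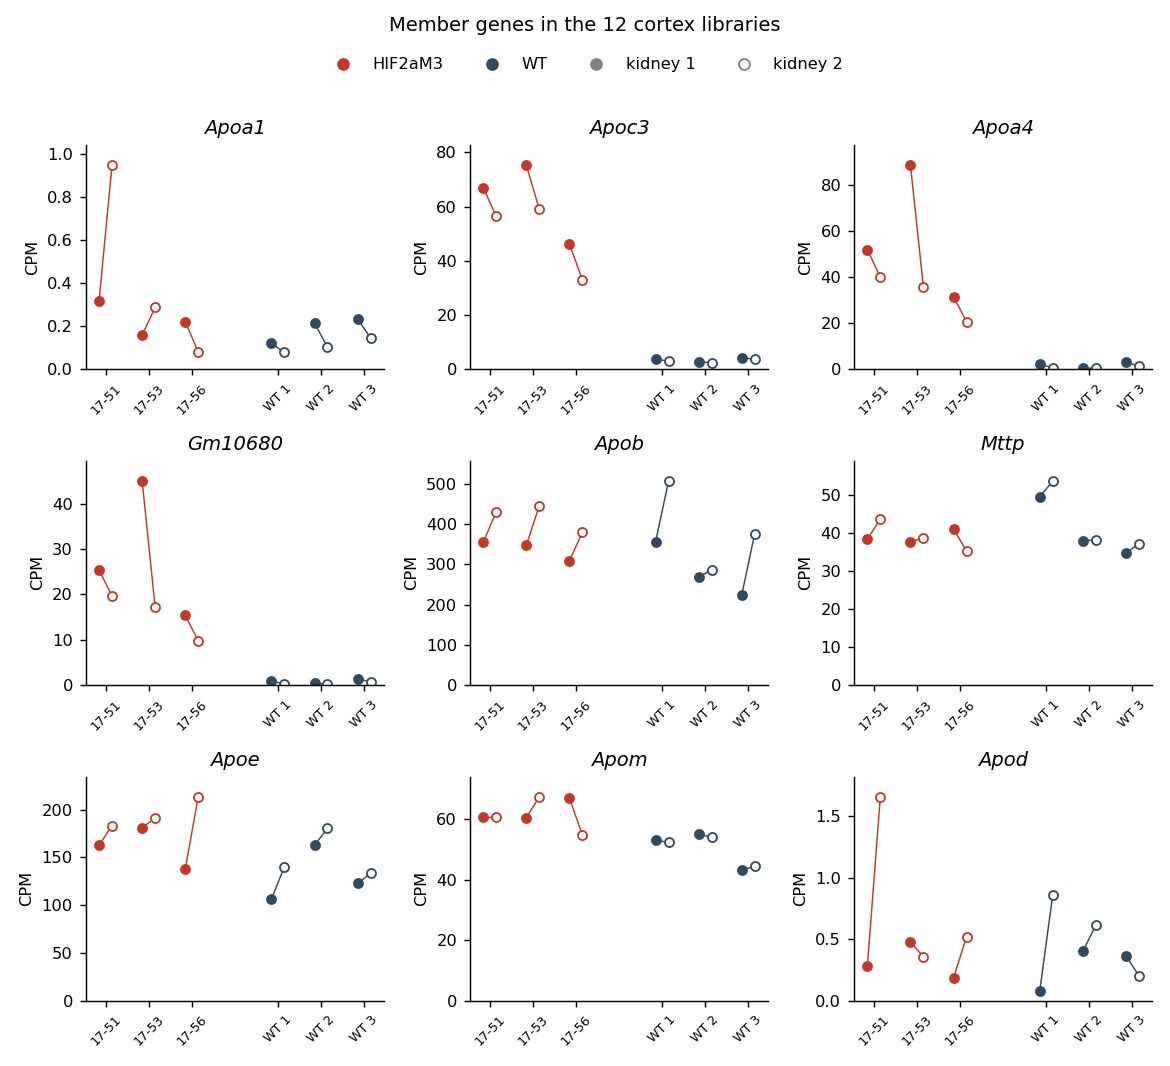
CPM of 9 members in each of 12 libraries (vertical axes, each from 0), by animal, HIF2aM3 in red on the left and WT in dark blue on the right, kidney 1 filled and kidney 2 open, joined within an animal. Apoc3, Apoa4 and Gm10680 separate by genotype in every library, while the other 6 overlap; Apoa5, with 2 reads in all, is not drawn.

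Over all 19564 genes tested between the genotypes, 377 were higher in HIF2aM3 at an adjusted p under 0.05 (1.93%) and 356 were lower (1.82%). Because that comparison chose Apoa4 and Gm10680, no call is given for the 9 members that passed the count filter. The 733 genes in all became 42, 11 and 196 without 17-51, 17-53 and 17-56, and 115, 1549 and 187 without WT animals 1, 2 and 3. The members whose animals did not overlap and were higher in HIF2aM3 were Apoa4, Gm10680, Apoc3 and Apom, 4 of 9, beside 15.5% of all genes tested, and nothing is read from that count for the same reason. Ranked by log2 fold change, Gm10680, Apoa4 and Apoc3 stood at places 11, 13 and 18 of 19564, Apoa1 at 967, Apoe at 2866 and Apom at 2923.

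Levels of different genes can be set side by side once divided by transcript length, here the summed exon length in the GRCm38 annotation, giving CPM per kb. In HIF2aM3 cortex Apoe was the highest at 81.3 ± 4.96 CPM per kb, followed by Apom (61.1 ± 1.67) and Apoc3 (56.9 ± 14.95). Next came Gm10680 (32.7 ± 13.4), Apob (26.3 ± 2.01) and Apoa4 (25.6 ± 10.1), then Mttp (6.19 ± 0.078). All are in CPM per kb with the SD over 3 animals, and the Gm10680 values may include Apoa4 reads. The ranges of neighbours from Apom down to Apoa4 in this order overlapped, although Apoc3 was above Gm10680 in all 3 animals. Apoe stood above Apom and Mttp stood below Apoa4 in every animal, with no overlap of the ranges. In WT cortex the order of the first places was Apoe (65.7 ± 12.01), Apom (49.7 ± 5.71), Apob (24.3 ± 5.99) and Mttp (6.73 ± 1.37 CPM per kb). In WT, Apoc3 (3.27 ± 0.67 CPM per kb), Gm10680 (0.886 ± 0.518) and Apoa4 (0.738 ± 0.475) came below Mttp. Thus Apoc3 was below Mttp in all 3 WT animals and above it in all 3 HIF2aM3 animals. Apoa1 and Apod were far lower, at 0.210 and 0.157 CPM per kb in HIF2aM3 and 0.121 and 0.162 CPM per kb in WT, and their animals overlapped with each other. In WT, the ranges of Gm10680 and Apoa4 overlapped as well, although Gm10680 was higher in all 3 animals. The ranges of every other pair of neighbours in the order did not overlap.

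The deposited RPKM (reads scaled to gene length and library size) put the members in a partly different order, because the gene lengths that they imply are longer than the exon lengths. The implied length of Apoe was 9554 bp, beside 2138 bp of exon, and that of Apoa4 was 2007 bp, beside 1815 bp. In HIF2aM3, Apoe accordingly stood at place 5 by RPKM (18.9 ± 0.75), below Apom (31.7 ± 1.01), Gm10680 (28.7 ± 12.1), Apoc3 (25.5 ± 6.65) and Apoa4 (22.4 ± 9.11 RPKM, SD over 3 animals). In WT the RPKM order began with Apom (25.4 ± 3.45), Apoe (14.7 ± 3.19) and Apob (9.83 ± 2.33 RPKM). The order between genotypes for any 1 gene does not depend on this length.

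**Figure D3:**
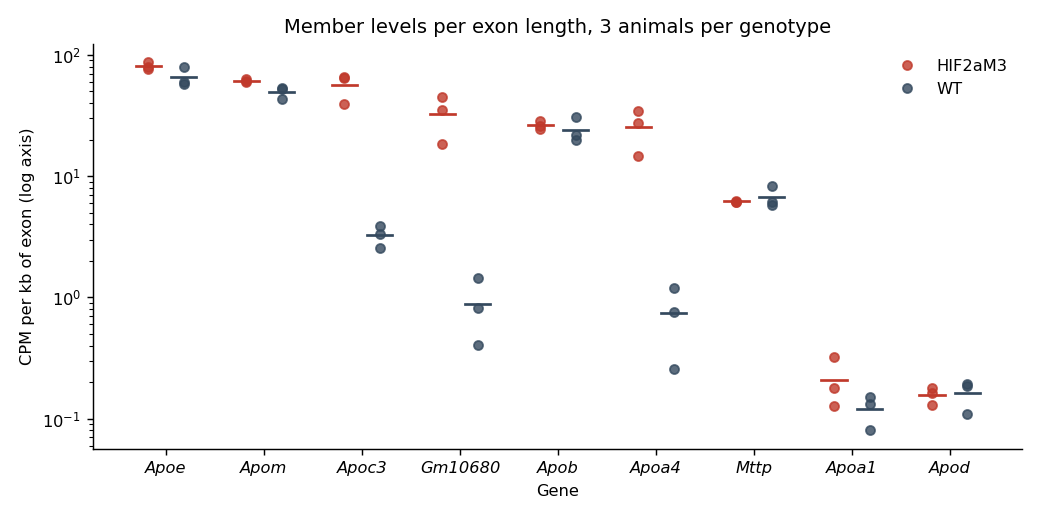
CPM per kb of exon (logarithmic axis) for 9 members in each animal, HIF2aM3 in red to the left of WT in dark blue, with a bar at the mean of 3 animals. Apoc3, Gm10680 and Apoa4 lie above Mttp in all HIF2aM3 animals and below it in all WT animals.

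Among the HIF2aM3 mice, 17-56 was the lowest and 17-53 the highest for Apoa4, Apoc3, Gm10680 and Apob. The highest animal was 2.36 times the lowest for Apoa4, 2.45 times for Gm10680 and 1.67 times for Apoc3, against 1.17 times for Apob and 1.02 times for Mttp. In WT the highest animal was 4.71 times the lowest for Apoa4 and 1.52 times for Apoc3, with animal 3 highest and animal 2 lowest in both. So for Apoa4 the animals of a genotype differed among themselves by several times, yet by less than the genotypes did.

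The kidneys of each animal gave a comparison inside 1 body. Apoa4, Gm10680 and Apoc3 were lower in kidney 2 than in kidney 1 in all 6 animals, a pattern that 3.27% of the 18719 genes tested showed. Apob and Apoe were higher in kidney 2 in all 6 animals, which 1.98% of genes were. Apom and Mttp went both ways, with log2 ratios of kidney 2 to kidney 1 between -0.29 and 0.18. As Apoc3 was chosen on this contrast, these values are a description.

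For Apoa4, kidney 2 and kidney 1 had 39.8 and 51.8 CPM in 17-51, 35.6 and 88.3 CPM in 17-53, and 20.6 and 31.5 CPM in 17-56. In WT, kidney 2 and kidney 1 had 0.664 and 2.09 CPM in animal 1, 0.342 and 0.563 CPM in animal 2, and 1.43 and 3.07 CPM in animal 3. Kidney 1 of 17-53 was thus the highest library of all, and its difference from kidney 2, 2.48-fold, was the largest of the HIF2aM3 mice but smaller than the 3.15-fold difference in WT animal 1. Over the 6 animals the log2 fold change of kidney 2 over kidney 1 was -0.91 ± 0.17 (SE, animal as block), and that of Gm10680 was -0.95 ± 0.15.

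Apoc3 differed less. Kidney 2 and kidney 1 had 56.4 and 67.0 CPM in 17-51, 59.1 and 75.2 CPM in 17-53, and 33.0 and 46.3 CPM in 17-56. In WT, kidney 2 and kidney 1 had 2.97 and 3.82 CPM in animal 1, 2.39 and 2.79 CPM in animal 2, and 3.84 and 4.11 CPM in animal 3. The direction was the same in each animal and the log2 fold change was -0.34 ± 0.05 (SE). With an adjusted p under 0.05, 17 of the 18719 genes (0.0908%) passed the kidney test. As Apoc3 was chosen on that test, no call is given for the members. The 17 genes became 10, 6 and 39 without 17-51, 17-53 and 17-56, and 4, 91 and 10 without WT animals 1, 2 and 3.

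Apob, the structural protein, went the other way, with a log2 fold change of 0.38 ± 0.08 (SE) and ratios between 0.10 and 0.74 in single animals. Apoe had a log2 fold change of 0.26 ± 0.08 (SE), and its largest ratio, 0.63, was in 17-56. In that mouse the summed macrophage markers were 271.5 CPM in kidney 2 and 157.8 CPM in kidney 1, while over all 6 mice they were higher in kidney 2 in 4 and lower in 2. Summed proximal tubule markers were lower in kidney 2 in 5 of 6 animals, by at most 0.20 on the log2 scale. Kap made the largest part of that sum, which does not stand for every marker. In kidneys 2 and 1 of 17-53, Kap was at 17470 and 20250 CPM, Slc34a1 at 6867 and 6428 CPM and Lrp2 at 2369 and 2168 CPM. The part of these cell types in the kidney values was not tested.

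**Figure D4:**
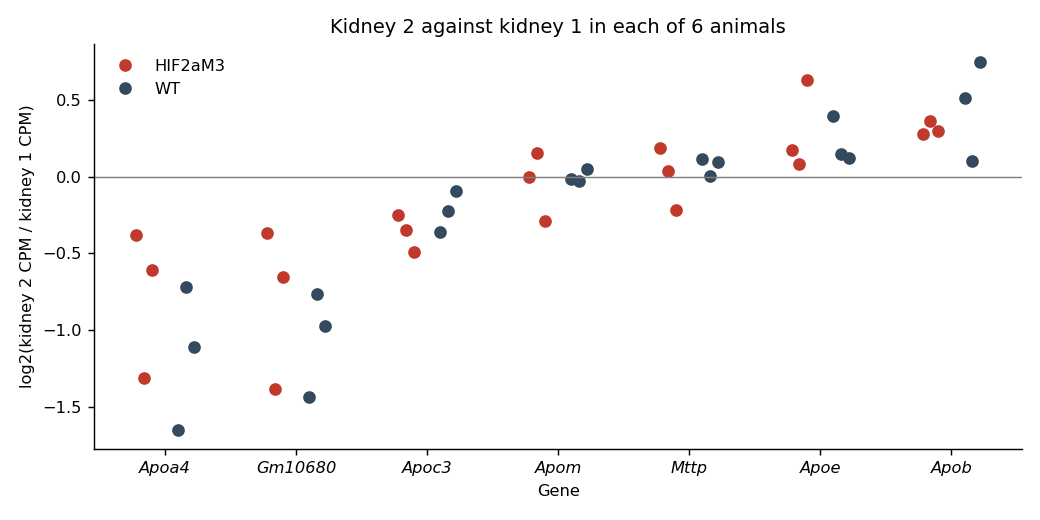
Log2 ratio of CPM in kidney 2 to CPM in kidney 1 for 7 members, 1 point per animal, HIF2aM3 in red to the left of WT in dark blue. All 6 points lie below 0 for Apoa4, Gm10680 and Apoc3 and above 0 for Apoe and Apob.

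Whether the kidney difference depended on genotype was tested, since no member was chosen on that. None of 18719 genes (0.0%) passed an adjusted p of 0.05 in edgeR's quasi-likelihood test of the interaction or in DESeq2, with 567 and 121 genes at an unadjusted p under 0.05. For Apoa4 the interaction was 0.34 ± 0.55 (log2, SE), for Gm10680 0.11 ± 0.53 and for Apoc3 -0.16 ± 0.12, each with an adjusted p of 1.0. The other 5 members tested had an adjusted p of 1.0 as well. Without WT animal 3, 1 gene passed in edgeR. These p-values do not show that the kidney difference was the same in both genotypes.

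Markers of the organs that make most apolipoproteins were measured in the same libraries. Of 20 hepatocyte markers 18 were in the table, and they summed to 77.5 to 135.3 CPM in HIF2aM3 libraries and 90.8 to 125.5 CPM in WT libraries. Led by Ttr, Fga and Fgg, these sums overlapped, and 1 gene of 11 tested rose (F2, prothrombin) while 1 fell (Apoh). The rise of F2 was large (log2 fold change 6.96 ± 0.66 SE, adjusted p = 0.01245 by edgeR). At 0.474 to 7.08 CPM, F2 was higher in every HIF2aM3 library than in any WT library. It made a small part of the sums, so their overlap says little about F2. The call of F2 was lost without 17-53 (adjusted p = 0.0605 by edgeR), and the values of Apoh follow with the other apolipoproteins. Levels within the list ran from 10050 reads over the 12 libraries for Ttr, 8000 for Fga and 5185 for Fgg down to 1 read each for Tat, Cps1 and Mup3 and 3 for Ahsg. Alb, albumin, had 2852 reads, at 4.06 to 13.7 CPM in HIF2aM3 libraries and 7.42 to 9.22 CPM in WT libraries (adjusted p = 0.984 by edgeR), so hepatocyte markers were present in both genotypes. Of 16 enterocyte and goblet cell markers 12 were in the table, and they summed to 186.0 to 232.4 CPM in HIF2aM3 and 198.7 to 220.8 CPM in WT, led by Vil1, a brush border protein that proximal tubule also has, Muc2 and Fcgbp. Muc2, the goblet cell mucin, was at 7.51 to 28.9 CPM in HIF2aM3 libraries, against at most 0.204 CPM in WT libraries (log2 fold change 7.25, adjusted p = 0.0128 by edgeR), with p at 0.0628 to 0.0692 without WT animal 1 or 17-53. Over the 12 libraries Muc2 had 2960 reads, Fcgbp 341, Krt20 232, Lct 44, Spdef 19, Rbp2 16, Fabp2 2, and Sis, Atoh1, Tff3 and Cdx1 1 each. Krt20 reached 3.63 CPM in a HIF2aM3 library, against at most 1.13 CPM in WT libraries, and did not pass the threshold (adjusted p = 0.372 by edgeR). The part of liver-type and intestine-type transcripts in the member values was not tested beyond these levels.

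In kidneys 2 and 1 of 17-53, which differed most in Apoa4 among HIF2aM3 mice, hepatocyte markers summed to 77.5 and 96.2 CPM and enterocyte and goblet markers to 212.1 and 212.2 CPM. Of the enterocyte and goblet sums, Vil1 made 191.0 and 192.2 CPM and Muc2 18.8 and 18.3 CPM. These sums therefore say little about the other markers of that list, of which Krt20 was at 0.959 and 0.341 CPM and Fcgbp at 1.13 and 1.16 CPM. Of the 11 hepatocyte markers tested, 8 were lower in kidney 2 of this mouse and 3 were higher. The share of all genes lower in that kidney is not given here, so nothing is read from this count. Kidneys 2 and 1 had 1.08 and 7.08 CPM of F2, 16.8 and 29.6 CPM of Ttr and 7.60 and 8.26 CPM of Alb, while Fga was at 17.7 and 16.1 CPM, Fgg at 15.4 and 12.1 CPM and Fgb at 2.90 and 2.09 CPM. The part of these genes' source in the Apoa4 difference was not tested.

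Genes whose level followed a member most closely within genotypes were picked by the highest Pearson r of log2(CPM + 0.5) over the 12 libraries, after the mean of each genotype was subtracted, among 15302 genes with a symbol and a mean of at least 1 CPM. The libraries come in pairs from 6 animals and share depth and dissection, so r is given as a description. Closest to Apoa4 outside the members were Mep1a (r = 0.956), Aqp4 (0.927), A4gnt (0.922) and Mep1b (0.911). Mep1a and Mep1b encode the meprin metalloproteases of the proximal tubule brush border, and Aqp4 a water channel. Closest to Apoc3 were Proc (r = 0.948), Mep1a (0.942), Slc9a8 (0.940) and Aqp4 (0.939). Apoa4 and Apoc3 followed each other with r = 0.902. Apoa4 and Gm10680 had r = 0.970, but their reads may come from the same RNA. Without both libraries of 17-53, r of Apoa4 was 0.963 with Mep1a and 0.894 with Apoc3.

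Apoe shared none of these neighbours. Closest to it were Mtss1l (r = 0.957), Msn (0.947), Cst3 (0.937) and Grk5 (0.936), Msn being the membrane linker moesin and Cst3 the protease inhibitor cystatin C. With Apoa4 and Apoc3, Apoe had r = -0.608 and -0.510 over the libraries of both genotypes together. As r was not computed inside each genotype, these values do not show that the tendency held in both. Apob followed neither cluster gene (r = -0.224 with Apoa4 and -0.021 with Apoc3).

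The rest of the lipid transport machinery was examined through 6 lists with 118 genes in the table, of which 95 passed the count filter. Of these, 1 rose and 7 fell in HIF2aM3 cortex (8.42% of those tested, beside 1.93% higher and 1.82% lower over all genes). The median log2 fold change over the 95 was -0.02, beside 0.01 over all genes tested. The adjusted p-values below are from edgeR's quasi-likelihood test over all 19564 genes, with 3 animals each. Leaving out 17-51, 17-53 and 17-56 left 1, 0 and 2 genes past the threshold, and leaving out WT animals 1, 2 and 3 gave 2, 14 and 4. All 8 calls were lost without 17-53. Of the 6 fits that left out 1 animal, Mogat1, Amn, Lmf1, Nr1h3 and Esrra kept their call in 1, without WT animal 2, and Dgat2 in 2, without WT animal 2 or 3, with the adjusted p of the lost calls between 0.0501 (Esrra) and 0.126 (Mogat1).

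Of 20 further apolipoprotein genes, 8 passed the count filter, 0 rose and 1 fell, with a median log2 fold change of -0.52. Apoh, beta-2-glycoprotein I, was at 9.82, 8.95 and 9.91 CPM in HIF2aM3 mice 17-51, 17-53 and 17-56, against 13.8, 13.9 and 14.7 CPM in WT mice 1, 2 and 3. It fell in every HIF2aM3 animal relative to every WT animal (log2 fold change -0.57 ± 0.07 SE, adjusted p = 0.0167), although p was 0.0784 without 17-53 and 0.0597 without 17-51. Clu, clusterin, did not pass the threshold, at 298.5 ± 32.5 CPM in HIF2aM3 and 457.3 ± 73.4 CPM in WT (SD, n = 3 each; adjusted p = 0.0519 by edgeR), and was picked out after its values were seen. The 12 other genes of this list, among them Apoc2, Apoc4 and Apof, had too few reads. Small exonic overlaps with another gene exist for Apoh (30 bases, Prkca), Mogat1 (200 bases, BC035947), Esrra (73 bases, Trmt112) and Nr1h3 (34 bases, Gm13783) among the genes named here and below.

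In assembly and secretion, 19 genes were tested, 0 rose and 2 fell. Both that fell act in triglyceride synthesis. Dgat2, which adds the last acyl chain, was at 180.5 ± 5.10 CPM in HIF2aM3 and 236.7 ± 14.8 CPM in WT (log2 fold change -0.39 ± 0.06 SE, adjusted p = 0.0281 by edgeR, n = 3 each). Mogat1, which makes diacylglycerol, was at 73.1 ± 5.80 CPM in HIF2aM3 and 97.1 ± 4.75 CPM in WT (-0.41 ± 0.07, adjusted p = 0.0309 by edgeR, n = 3 each). Mogat1 was also lower in kidney 2 than in kidney 1 (log2 fold change -0.18 ± 0.03 SE, adjusted p = 0.0321), the 1 list gene past the threshold there, and that call was lost without WT animal 1 or 3, 17-51 or 17-53 (adjusted p 0.103 to 0.213 by edgeR). The list median was -0.05.

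Of 19 receptor and uptake genes tested, 0 rose and 1 fell. Amn, amnionless, which anchors cubilin at the tubule surface, was at 97.1 ± 9.56 CPM in HIF2aM3 and 126.8 ± 5.44 CPM in WT (log2 fold change -0.39 ± 0.08 SE, adjusted p = 0.0458 by edgeR, n = 3 each). Its call was lost in 9 of 20 alternatives, among them leaving out kidney 2 of 17-51 (adjusted p = 0.0550 by edgeR) and kidney 1 libraries alone (0.0568). Its partner Cubn (568.9 ± 59.4 CPM in HIF2aM3 and 529.0 ± 12.7 CPM in WT) and the endocytic receptor Lrp2, megalin (2293 ± 28.8 CPM in HIF2aM3 and 2233 ± 158.3 CPM in WT), did not pass, with an adjusted p of 0.476 and 0.797. Both were named for their role after their values were seen. Of 14 lipase and HDL remodelling genes, 0 rose and 1 fell, Lmf1, the lipase maturation factor (24.2 ± 1.25 CPM in HIF2aM3 and 30.2 ± 0.28 CPM in WT, adjusted p = 0.0334 by edgeR, n = 3 each). The medians of these lists were 0.03 and 0.00.

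Of 26 transcription regulators tested, 1 rose and 2 fell, with a median of -0.05. Pparg, a lipid-sensing nuclear receptor, was at 3.75, 4.12 and 3.37 CPM in HIF2aM3 mice 17-51, 17-53 and 17-56, against 0.970, 1.24 and 0.822 CPM in WT mice 1, 2 and 3. It rose in every HIF2aM3 animal (log2 fold change 1.89 ± 0.18 SE, adjusted p = 0.00911 by edgeR), with p at 0.0653 when 17-53 was left out. Nr1h3, the oxysterol receptor LXR alpha, fell to 32.3 ± 1.09 CPM in HIF2aM3, against 44.95 ± 3.85 CPM in WT (-0.48 ± 0.07, adjusted p = 0.0236 by edgeR). Esrra, an orphan nuclear receptor of energy metabolism, fell to 118.6 ± 1.70 CPM in HIF2aM3, against 149.8 ± 1.60 CPM in WT (-0.34 ± 0.05, adjusted p = 0.0211 by edgeR). Hnf4a, the best-known activator of the cluster in liver and intestine, was at 1154 ± 68.3 CPM in HIF2aM3 and 1128 ± 90.8 CPM in WT, with an adjusted p of 0.848 by edgeR, and was named for its role after its values were seen.

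None of the 9 tested neighbours of the cluster on chromosome 9 passed the threshold (median log2 fold change -0.00). The 1 with the smallest p was Tagln, the smooth muscle protein transgelin, at 27.8 ± 1.78 CPM in HIF2aM3 and 24.0 ± 0.35 CPM in WT (0.21 ± 0.06, adjusted p = 0.0925 by edgeR, n = 3 each). The log2 fold changes of the 9 genes lay between -0.17 and 0.21, beside 4.12 for Apoc3 and 5.12 for Apoa4, which lie among them on the chromosome.

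**Figure D5:**
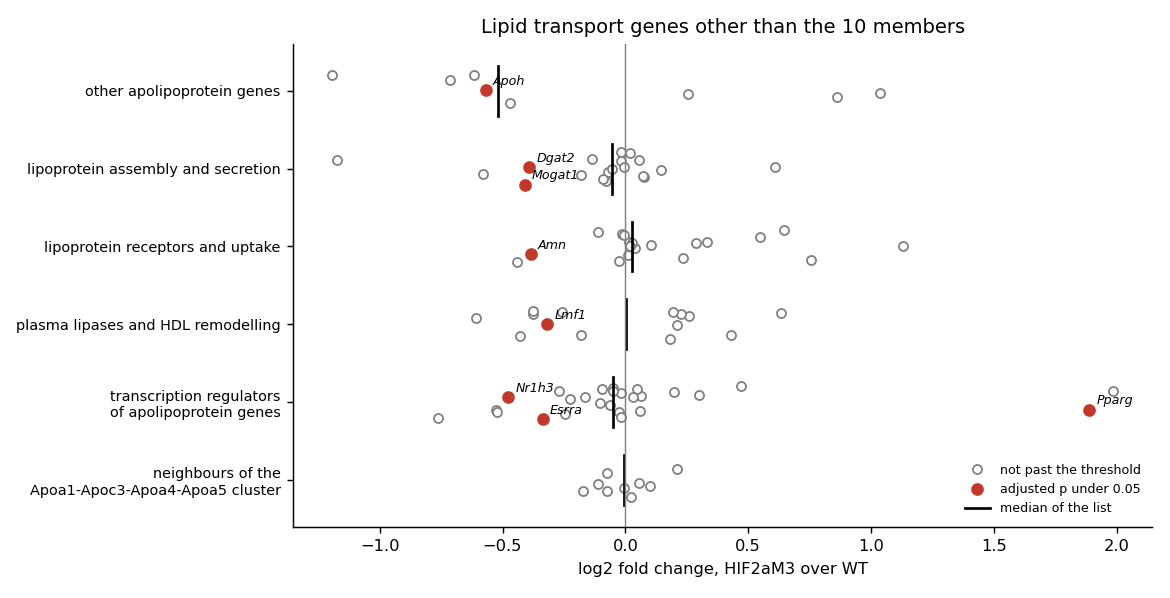
Log2 fold change, HIF2aM3 over WT (horizontal axis), of each tested gene in the 6 lists (rows), with genes at an adjusted p under 0.05 filled and named and a bar at each list's median. Pparg lies on the higher side at 1.89, the other 7 named genes lie on the lower side, and the 9 cluster neighbours lie between -0.17 and 0.21.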

How the data were processed

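RNA of outer cortex slices was prepared with a TruSeq RNA kit, per the labels' protocols. Per the submitters' processing notes, reads were placed on mm9. No aligner, counting program, annotation or strand setting is named in the sources used here. The authors deposited raw read counts per Ensembl gene, per the file headers. They also deposited RPKM, which the values show to include about 1 added read per gene. A further 12 per-sample columns were not used. GENCODE M21 gave 24630 symbols, exon lengths and overlaps.

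For the genotype comparison, both kidneys of an animal were added together, and edgeR 4.0.16 (R 4.3.3) was run with its quasi-likelihood test, filterByExpr, TMM factors and robust dispersion, two-sided, at a Benjamini-Hochberg threshold of 0.05. The SE was derived from the fold change and the F statistic. Kidneys were compared over 12 libraries with the animal as a block, with an interaction term for genotype. CPM use TMM factors. Library pairs differed beyond sampling noise (lowest chi-square per degree of freedom 1.77). Genotype p-values measure the spread between 3 animals per genotype. Kidney and interaction p-values measure the spread of the kidney difference over the animals. Limits for 0 counts cover counting error only.

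Members, lists and motifs were chosen with earlier results of these data known. Named genes were all members, up to 4 genes past the threshold per lipid list or else the 1 of smallest p, the 3 highest of a marker list, and the 4 genes closest to Apoa4, Apoc3 and Apoe; markers beyond those 3 were picked after their values were seen, and other exceptions are marked where named. Alternatives covered the replicate unit, each kidney, DESeq2 1.42.0, RLE factors, library size, filters, limma 3.58.1 on log2(RPKM + 1) and log2(RPKM + 0.1), and left-out libraries and animals; leaving out kidney 2 of 17-56 was added after the data were seen. Depth was 4161829 to 43499743 reads per library.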

Additional observations from a re-analysis of the deposited data

Results flagged for a closer look

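In 18 sets of 6 libraries (9 members in each genotype) the highest or lowest library was set against the other 5, and chance gives a flag in about 1 set in 20. Apoa1 in kidney 2 of 17-51 was at 0.948 CPM, against 0.0797 to 0.319 CPM in the other HIF2aM3 libraries. Apod in the same library was at 1.66 CPM, against 0.190 to 0.518 CPM in the others. These values rest on 4 and 7 reads in the library with the lowest total, where 3 reads amount to 0.721 CPM. Without that library the log2 fold change between genotypes was 0.53 for Apoa1 and -0.22 for Apod.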

How the results depend on the processing

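The log2 fold change between genotypes kept its sign in every alternative run for Apoa4 (3.76 to 5.73), Apoc3 (3.39 to 4.33) and Gm10680 (3.96 to 5.78). The lowest value of each was from limma on RPKM plus 1 (3.76, 3.39 and 3.96), a scale that compresses low genes. Their kidney values kept their sign as well. Of the other members, Apob went to -0.02 without WT animal 2, Mttp to 0.05 without WT animal 1, and Apod took both signs (-0.28 to 0.22). The number of genes past the threshold between genotypes, 733, was 4829 with 12 libraries as replicates, 2058 with DESeq2, 337 with kidney 2 alone, 145 with limma on RPKM plus 1 and 189 with RPKM plus 0.1, and from 11 (without 17-53) to 1549 (without WT animal 2) with 1 animal left out. The 8 lipid list genes became 32, 21, 4 and 4 with 12 libraries, DESeq2 and the 2 RPKM settings, and 0 to 14 with 1 animal left out. Beside 1 higher and 7 lower in the main fit, there were 14 and 18 with 12 libraries and 9 and 12 with DESeq2. With each RPKM setting there were 1 higher and 3 lower, and without WT animal 2 there were 4 and 10. The 17 kidney genes became 0 with no animal block, 59 with DESeq2 and 4 to 91 with 1 animal left out. The interaction gave 0 to 1 genes with 1 animal left out. The cause was not tested. No paired comparison of the genotypes was possible because they share no animal number. Depth limits Apoa1, Apoa5 and Apod, and 3 animals against 3 cannot go below an exact permutation p of 0.1.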
